A study of Mus musculus with 4 samples.

Results

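The genes described here write, assist or remove methylation of lysine 4 on histone H3 (H3K4). They were chosen by name, as 10 of the 55401 gene identifiers in the count files: *Kmt2a*, *Kmt2b*, *Kmt2c*, *Kmt2d*, *Kmt2e*, *Setd1a*, *Setd1b*, *Wdr5*, *Paf1* and *Kdm1b*. The study asked how an obesogenic maternal diet alters RNA in the oocytes of fetuses. Before mating with ND males, ICR females were kept for 4 months on normal chow (ND) or on a diet high in fat (HFD). At E18.5, late in gestation, germ cells positive for the surface antigen SSEA-1 were sorted from the ovaries of their fetuses, and RNA was amplified with SMART-Seq2, a poly(A)-based method for small inputs. The 2 ND libraries and the 2 HFD libraries each pooled 300 oocytes from 10 fetuses, so that the spread between libraries is that between pools, and no genotype or agent other than the diet separated the groups.

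H3K4 trimethylation marks active promoters, and mono-methylation marks enhancers. Each catalytic KMT2 or SETD1 enzyme carries a SET domain and works with a shared core that includes WDR5, while other subunits direct the complex to promoters or enhancers. PAF1 gives its name to a complex that travels with RNA polymerase II and promotes ubiquitination of histone H2B, a step that favours H3K4 methylation. KDM1B removes mono- and di-methyl groups from H3K4. In growing mouse oocytes KDM1B is needed for DNA methylation of imprinted loci, and KMT2B is known as the main writer of H3K4 trimethylation. In fetal oocytes, meiotic recombination starts at H3K4-trimethylated sites written by PRDM9.

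Promoter windows of RefSeq, 250 bases before to 50 bases after a gene's start on GRCm38.p6, were present for 7 of the 10 genes. Those 7 windows held between 14 and 56 CpG dinucleotides, against a median of 7 over all windows of this length. *Kmt2c* had 56, *Kmt2a* 36, *Setd1a* 35, *Kmt2d* 27, *Kdm1b* 26, *Wdr5* 22 and *Paf1* 14. KMT2A, KMT2B and the SETD1 partner CXXC1 bind unmethylated CpG through a CXXC zinc finger. Whether these proteins bind the windows of the group's own genes was not tested. The GC box GGGCGG, searched on both strands and itself containing a CpG, was found in 6 of the 7 windows and in 35.66% of all windows. TATAAA, also searched on both strands, was in 0 of the 7 and in 13.62% of all. The 3 windows below are shown because *Paf1* and *Kdm1b* had the widest and *Wdr5* the narrowest ranges of RNA level, and capitals mark CpG. *Paf1* lies on chromosome 7 (chr7:28392746-28393045, plus strand), *Kdm1b* on chromosome 13 (chr13:47043249-47043548, plus strand) and *Wdr5* on chromosome 2 (chr2:27514897-27515196, plus strand).
Paf1: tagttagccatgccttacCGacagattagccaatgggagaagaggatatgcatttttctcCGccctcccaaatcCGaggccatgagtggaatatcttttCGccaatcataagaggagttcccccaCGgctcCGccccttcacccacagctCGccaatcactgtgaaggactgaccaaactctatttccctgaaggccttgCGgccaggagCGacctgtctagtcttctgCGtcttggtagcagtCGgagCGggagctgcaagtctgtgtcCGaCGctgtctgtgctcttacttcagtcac
Kdm1b: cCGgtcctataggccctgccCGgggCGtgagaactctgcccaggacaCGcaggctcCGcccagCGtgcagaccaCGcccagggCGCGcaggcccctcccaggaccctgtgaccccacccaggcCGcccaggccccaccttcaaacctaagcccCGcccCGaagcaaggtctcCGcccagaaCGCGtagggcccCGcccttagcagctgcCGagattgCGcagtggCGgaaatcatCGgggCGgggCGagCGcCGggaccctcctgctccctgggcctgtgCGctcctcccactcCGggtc
Wdr5: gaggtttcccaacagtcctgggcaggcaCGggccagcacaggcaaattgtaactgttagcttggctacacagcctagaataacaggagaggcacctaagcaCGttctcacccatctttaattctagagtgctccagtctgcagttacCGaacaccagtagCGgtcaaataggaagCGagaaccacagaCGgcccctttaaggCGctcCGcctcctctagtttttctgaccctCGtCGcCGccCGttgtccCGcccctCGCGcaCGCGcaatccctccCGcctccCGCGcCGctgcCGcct

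Total counts per library were between 5723605 and 8223255, so that 3 counts corresponded to 0.365 to 0.524 CPM (a gene's count over the library total, times 1000000). Reads carry no molecular identifiers, and the intervals given below cover counting error only. Reads were present on 80.18% to 96.04% of 1135 olfactory receptor genes, which oocytes are not known to use. The 99th percentile of their reads per kilobase of exon was taken as the background limit, at 8.47 and 9.01 in ND replicates 1 and 2 and 7.44 and 12.5 in HFD replicates 1 and 2. The germ cell label was checked on 10 markers, of which 9, 9, 6 and 5 exceeded background in ND replicates 1 and 2 and HFD replicates 1 and 2. *Dazl*, an RNA-binding protein of germ cells, was at 1733 and 3770 CPM in ND and at 453 and 8.56 CPM in HFD, and *Ddx4*, the germ cell helicase, was at 5.96 and 12.4 CPM in ND and 0.774 and 2.45 CPM in HFD. Of the other markers, *Sycp1*, a synaptonemal complex protein, was at 4.38 and 6.14 CPM in ND and 1400 and 1394 CPM in HFD, and *Taf7l* and *Dppa3* likewise lay above ND in both HFD libraries. The 10 markers summed to 1979 and 3869 CPM in ND and 3517 and 2437 CPM in HFD, so that the sums overlapped. Stromal markers were also present, with sums over 8 genes of 2676 and 58.9 CPM in ND and 1600 and 7062 CPM in HFD. HFD replicate 2 was the highest of the 4 libraries for 50.6% of the 19335 genes tested, and for 26.3% after normalization by the trimmed mean of M values (TMM).

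No gene of the group passed the limits used between the diets, an adjusted p under 0.05 and a fold change over 1.5. The count was 0 higher and 0 lower in HFD, where 0% of the 19335 genes were called in each direction by edgeR's quasi-likelihood test. All 10 genes passed the filter on low counts. At an unadjusted p under 0.05, 1 of the 10 was higher in HFD beside 4.82% of all genes, and 0 were lower beside 6.41% of all genes. Over all genes there were 2171 at that limit with edgeR and 750 with limma-voom. The fitted log2 fold change was above 0 for 6 of the 10 genes, beside 51.5% of all genes tested, and below 0 for 4. Its median was 1.17 over the group, between *Wdr5* at 0.42 and *Setd1b* at 1.93, against 0.03 over all genes tested.

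In CPM, both HFD libraries lay above both ND libraries for 4 of the 10 genes, *Kmt2a*, *Kmt2c*, *Setd1b* and *Wdr5*, beside 13.9% of all genes tested. For 0 genes they lay below, beside 13.4%. Scaling decided part of this pattern. After TMM normalization 3 genes lay above, without *Wdr5*, beside 16.1%, and *Kmt2e* lay below, beside 17.8%. For *Kmt2e* this rested on 6.112 CPM in ND replicate 1 against 6.106 CPM in HFD replicate 2, both under the background limit. Without HFD replicate 1 the count in CPM was 8 of 10, beside 56.1% of all genes.

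**Figure D1:**
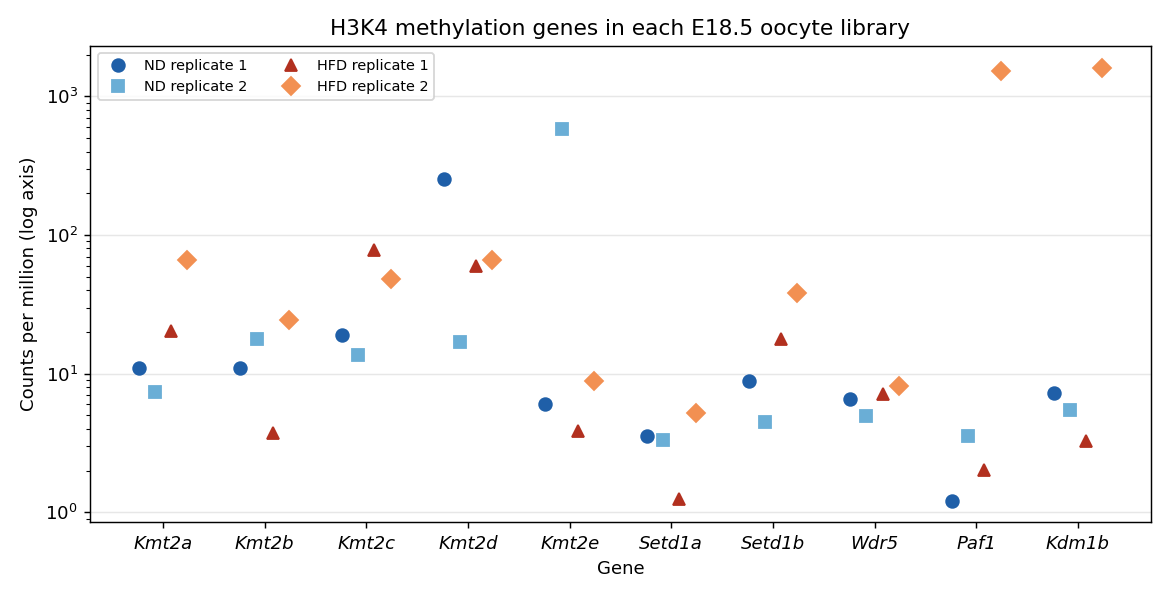
CPM of the 10 genes in each library, on a log axis, with circles and squares for ND and triangles and diamonds for HFD. *Paf1* and *Kdm1b* stand above 1500 CPM in HFD replicate 2 and under 8 CPM elsewhere, *Kmt2e* stands at 581 CPM in ND replicate 2, and *Wdr5* stays between 4.99 and 8.21 CPM.

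*Kmt2a* (ENSMUSG00000002028) encodes the founding mammalian KMT2 enzyme, known for maintaining Hox gene expression. Its gene spans chromosome 9 from 44803355 to 44881296 on GRCm38, the build of all gene positions given here. Replicates 1 and 2 gave 91 and 58 counts under ND and 132 and 378 under HFD, or 11.1, 7.42, 20.4 and 66.0 CPM. The diets did not overlap, and the HFD values differed by 3.23-fold between themselves. The mean was 9.24 ± 2.58 CPM in ND and 43.2 ± 32.2 CPM in HFD (SD, n = 2 each). On the log2 scale the fitted difference was 1.97 ± 0.84 (± standard error here and below), with an adjusted p of 0.406 in edgeR. Omitting any 1 library left it at 1.65 to 2.14. Per kilobase of exon, *Kmt2a* was under the background limit in both ND libraries, at 0.644 and 0.386 of it, and above it in both HFD libraries, at 1.06 and 1.81 times.

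*Kmt2b* (ENSMUSG00000006307, chromosome 7 from 30568858 to 30588726) gave 91 and 138 counts under ND and 24 and 140 under HFD. These are 11.1 and 17.7 CPM in ND and 3.72 and 24.5 CPM in HFD, so that the HFD libraries held both the lowest and the highest value. Its fitted log2 difference was -0.45 ± 0.84 (adjusted p = 0.894) and became 0.026 without HFD replicate 1. Among the KMT2 enzymes, *Kmt2b* was above background in both ND libraries, at 1.12 and 1.60 times the limit, while *Kmt2a* and *Kmt2c* were above it in neither.

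*Kmt2c* and *Kmt2d* encode the enzymes that mono-methylate H3K4 at enhancers. *Kmt2c* (ENSMUSG00000038056, chromosome 5 from 25271798 to 25498783) gave 156 and 106 counts under ND and 501 and 276 under HFD, or 19.0, 13.6, 77.6 and 48.2 CPM. Both HFD libraries lay above both ND libraries, and the libraries of a diet differed by 1.40-fold in ND and 1.61-fold in HFD. A fitted log2 difference of 2.12 ± 1.15 (adjusted p = 0.461) became 0.85 without HFD replicate 1. In relation to the background limit *Kmt2c* was at 0.907 and 0.580 in ND and at 3.32 and 1.09 in HFD.

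*Kmt2d* (ENSMUSG00000048154, chromosome 15 from 98831669 to 98871204) gave 2093 and 133 counts under ND and 386 and 381 under HFD. These are 255 and 17.0 CPM in ND and 59.8 and 66.6 CPM in HFD. The ND libraries lay on either side of the HFD libraries, 14.96-fold apart, whereas the HFD libraries differed by 1.11-fold. The fitted log2 difference of -1.04 ± 1.64 (adjusted p = 0.867) became 1.79 without ND replicate 1 and -1.97 without ND replicate 2. ND replicate 1 exceeded the background limit 12.4 times.

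*Kmt2e* (ENSMUSG00000029004, chromosome 5 from 23434441 to 23504235) encodes a family member with a SET domain that is not known to methylate H3K4. ND replicates 1 and 2 held 50 and 4537 of its reads, and HFD replicates 1 and 2 held 25 and 51, or 6.08, 581, 3.87 and 8.91 CPM. The level in ND replicate 2 was 65.2 times the next highest value, that of HFD replicate 2, and the ND and HFD values overlapped. Only ND replicate 2 exceeded background, at 48.2 times the limit. With all libraries the fitted log2 difference was -5.75 ± 2.48 (adjusted p = 0.406), and without ND replicate 2 it was -0.11. *Srpk2*, on the opposite strand, shares 9.31% of the exon bases of *Kmt2e* and had 103 counts in ND replicate 2, against 874, 36 and 268 in ND replicate 1 and HFD replicates 1 and 2. The strand setting of the counting is not given in the sources used here, so that reads of the shared bases cannot be told apart.

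The SETD1 enzymes write most promoter trimethylation in many cell types. *Setd1a* (ENSMUSG00000042308, chromosome 7 from 127776670 to 127800122) gave 29 and 26 counts under ND and 8 and 30 under HFD, or 3.53, 3.33, 1.24 and 5.24 CPM. The value of 1.24 CPM in HFD replicate 1 has a 95% Clopper-Pearson interval of 0.535 to 2.44 CPM. *Setd1a* was the only gene of the 10 at background in all 4 libraries, between 0.158 and 0.504 of the limit. Its exons share 3523 of 6795 bases with *Gm49388*, a gene annotated on the same strand that had 0 counts in every library. On the remaining 3272 bases *Setd1a* would have 8.86, 7.95, 2.44 and 9.17 reads per kilobase, which is above the limit in ND replicate 1 alone. No difference was detectable at this depth, with a fitted log2 value of -0.40 ± 0.47 (adjusted p = 0.792).

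*Setd1b* (ENSMUSG00000038384, chromosome 5 from 123142193 to 123168629) had the smallest p of the group. The libraries held 73 and 35 of its reads under ND and 115 and 220 under HFD, or 8.88, 4.48, 17.8 and 38.4 CPM. Both HFD libraries were above both ND libraries, which differed by 1.98-fold, while the HFD libraries differed by 2.16-fold. The mean was 6.68 ± 3.11 CPM in ND and 28.1 ± 14.6 CPM in HFD (SD, n = 2 each). Its fitted log2 difference was 1.93 ± 0.75 in edgeR (unadjusted p = 0.0449, adjusted p = 0.406). Omitting any 1 library gave 1.5 to 2.35, while the unadjusted p from limma-voom was 0.273. Like *Kmt2a* and *Kmt2c*, *Setd1b* was under the background limit in both ND libraries and above it in both HFD libraries, at 1.28 and 1.46 times.

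Before TMM normalization, *Kmt2a*, *Kmt2c*, *Setd1b* and *Wdr5* were the 4 genes in which neither gap between libraries of the same diet exceeded the gap between the diet means in log2 CPM. In the other 6 genes the libraries of at least 1 diet were further apart than the diets, as they were for 82.4% of the tested genes that could be scored. That share scored genes lacking a count in a single library as not further apart, and 18621 genes had a count in every library. After TMM normalization *Wdr5* was at 6.60 and 5.42 CPM in ND and 10.5 and 5.63 CPM in HFD, so that its HFD values lay further apart than the diets. The HFD values became 114 and 33.0 CPM for *Kmt2c*, further apart than before, and 26.1 and 26.3 CPM for *Setd1b*, closer together. Summed over the 6 catalytic KMT2 and SETD1 genes, the level was 308 and 63.5 CPM in ND and 181 and 249 CPM in HFD. The ND and HFD sums overlapped, with *Kmt2d* giving most of the sum in ND replicate 1.

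**Figure D2:**
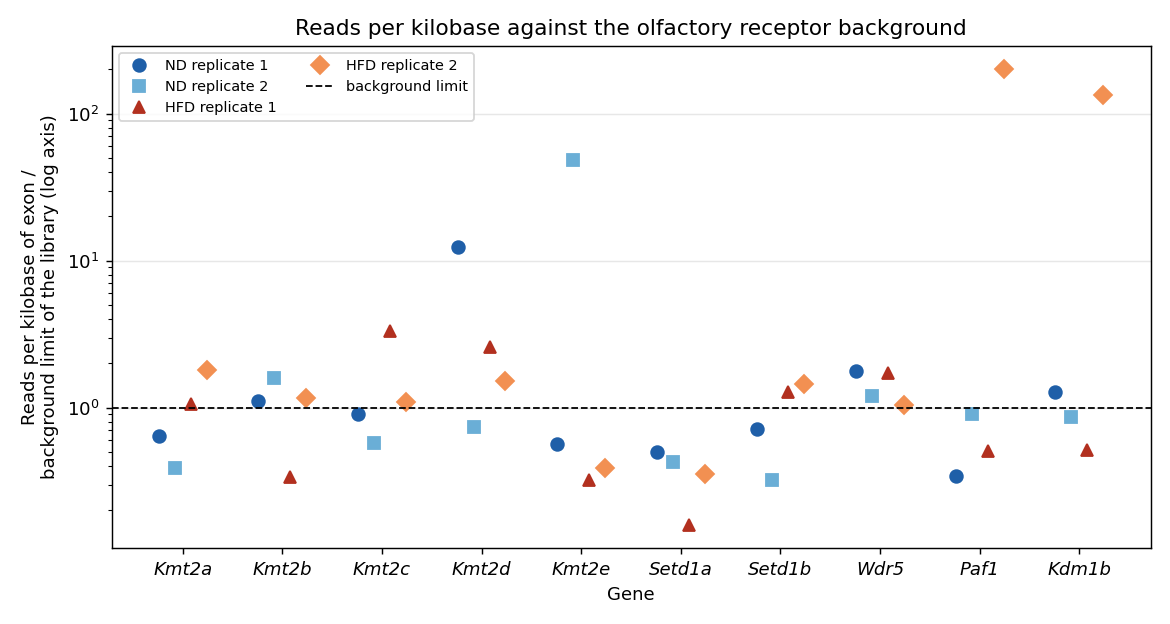
Reads per kilobase of exon of each gene divided by the background limit of its library, on a log axis, with a dashed line at 1. *Wdr5* is above the line in all 4 libraries, *Setd1a* in none, and *Kmt2a*, *Kmt2c* and *Setd1b* only in the HFD libraries, at 1.06 to 3.32 times the limit.

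*Wdr5* (ENSMUSG00000026917, chromosome 2 from 27515157 to 27536535) encodes the propeller protein that all KMT2 and SETD1 complexes use. The counts were 54 and 39 under ND and 46 and 47 under HFD, or 6.57, 4.99, 7.12 and 8.21 CPM. The HFD values lay above the ND values, but their counting errors overlapped: the 95% Clopper-Pearson intervals were 4.93 to 8.57 CPM in ND replicate 1 and 5.22 to 9.50 CPM in HFD replicate 1. Its highest value was 1.65 times its lowest, the narrowest range of the group. *Wdr5* was also the only gene of the 10 above background in every library, at 1.04 to 1.77 times the limit. The fitted log2 difference was 0.42 ± 0.55 (adjusted p = 0.822), and it was -0.21 without HFD replicate 1.

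*Paf1* (ENSMUSG00000003437, chromosome 7 from 28392951 to 28399388) gave 10 and 28 counts under ND, 13 under HFD in replicate 1 and 8690 in replicate 2. These are 1.22 and 3.58 CPM in ND and 2.01 and 1518 CPM in HFD. HFD replicate 2 alone was high, and HFD replicate 1 lay between the ND values. A fitted log2 difference of 7.66 ± 3.14 (unadjusted p = 0.0524, adjusted p = 0.406) came to 0.22 without HFD replicate 2. Outside that library *Paf1* was at 0.343 to 0.904 of the background limit, and in it at 202 times the limit.

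*Kdm1b* (ENSMUSG00000038080, chromosome 13 from 47043499 to 47085279) had the same shape. ND gave 60 and 43 counts, and HFD gave 21 in replicate 1 and 9236 in replicate 2, or 7.30, 5.502, 3.25 and 1614 CPM. HFD replicate 1 was the lowest of the 4 libraries and HFD replicate 2 the highest. The fitted log2 difference was 6.38 ± 2.86 (adjusted p = 0.406) and changed sign to -0.47 without HFD replicate 2. *Dek*, which shares 9.19% of the exon bases of *Kdm1b* on the opposite strand, went the other way, with 3410 reads in HFD replicate 1 and 73 in HFD replicate 2.

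Together *Paf1* and *Kdm1b* made up 92.2% of the summed CPM of the 10 genes in HFD replicate 2, and 1.38% to 2.68% in the other libraries. HFD replicate 2 also had the highest stromal marker sum, 7062 CPM, against 2676 and 58.9 CPM in ND and 1600 CPM in HFD replicate 1. Of the 8 markers 5 were above background in HFD replicate 2, and 5 also in ND replicate 1. The pregranulosa marker sum over 10 genes was 1801 CPM in HFD replicate 2. It was 197 and 417 CPM in ND replicates 1 and 2 and 641 CPM in HFD replicate 1. Few genes set these sums. Of the stromal markers *Col3a1*, *Col1a1* and *Postn* gave 2968, 2741 and 1272 CPM in HFD replicate 2. *Dcn* and *Lum* went the other way, at 2.97 and 1.22 CPM there against 323 and 598 CPM in ND replicate 1. The highest value lay in HFD replicate 2 for 5 of the 8 stromal markers, in ND replicate 1 for 2 and in HFD replicate 1 for 1. In HFD replicate 2 *Amhr2*, a receptor of granulosa cells, gave 1113 CPM and *Nr2f2* 639 CPM, whereas *Foxl2*, a defining factor of these cells, was at 5.94 CPM. *Nr2f2* also gave 623 CPM in HFD replicate 1 and 167 CPM in ND replicate 1, and *Fst* gave 383 CPM in ND replicate 2. The part of stromal and pregranulosa cells in the levels of *Paf1* and *Kdm1b* was not tested. In a pool of cells, fewer cells of a type and less RNA per cell cannot be told apart.

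The single-library pattern was measured for every gene as the share of its summed CPM that its highest library held. It was 99.6% for *Paf1*, 99.02% for *Kdm1b*, 96.9% for *Kmt2e*, 64.0% for *Kmt2d* and 62.9% for *Kmt2a*, and 30.5% for *Wdr5*. A share over 80% was found for 3 of the 10 genes and for 13.1% of all genes tested, and the median share was 59.1% in the group and 45.4% over all genes tested. The 3 protein-coding genes nearest to *Paf1*, by Euclidean distance of log2 CPM over the 4 libraries, were *Wwtr1*, *Sohlh1* and *Fntb*, at distances of 0.499, 0.857 and 0.972. *Sohlh1*, a transcription factor of oocytes, had 13 and 19 counts in ND and 19 and 10997 in HFD. Nearest to *Kmt2e* were *Adss*, *Tars2* and *Mef2a*, at 0.392, 0.642 and 0.646. With 4 libraries, such a distance describes which library is high and little else.

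**Figure D3:**
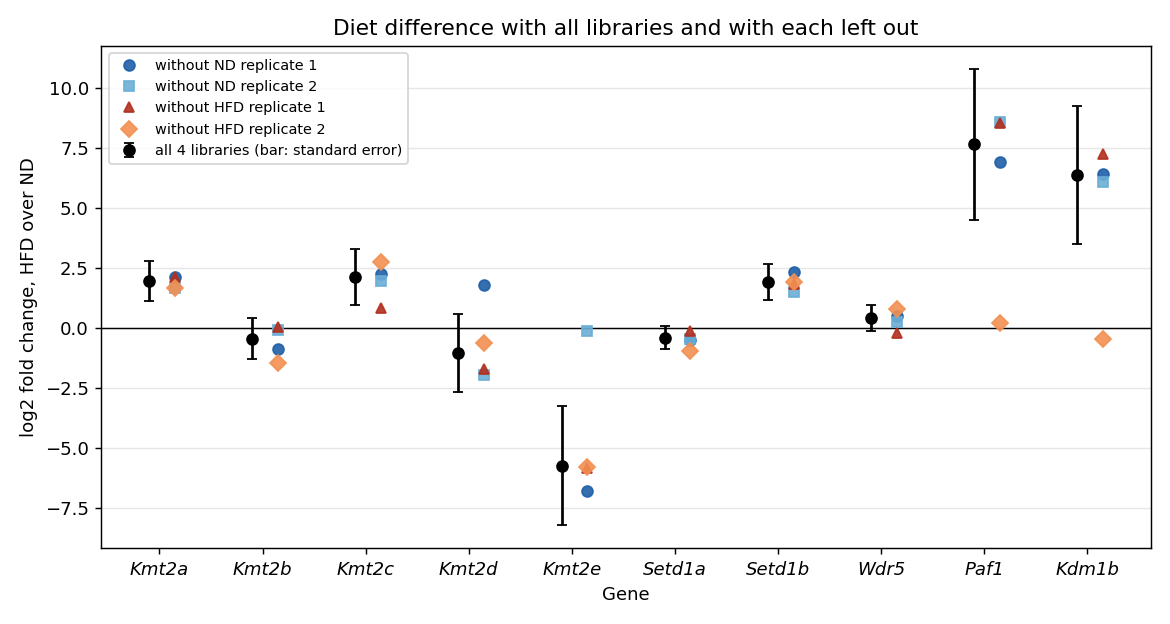
Fitted log2 fold change of HFD over ND with all 4 libraries (black, bar: standard error) and with each library left out (coloured). *Kmt2a* and *Setd1b* keep values of 1.5 to 2.35 in every fit, *Paf1* and *Kdm1b* come to 0.22 and -0.47 without HFD replicate 2, and *Kmt2e* comes to -0.11 without ND replicate 2.

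With DESeq2 on all genes, the tool that the study's methods name, 3 of the 10 genes passed the same limits. *Paf1* (log2 fold change 7.59, adjusted p = 0.000141) and *Kdm1b* (6.33, adjusted p = 0.000806) were called higher in HFD, beside 24.3% of the 5601 genes that received an adjusted p. *Kmt2e* (log2 fold change -5.86, adjusted p = 0.00125) was called lower, beside 21%. The study's text names *Kmt2e* from these same libraries, so its call is not independent evidence. The 3 called genes were those with over 80% of their summed CPM in 1 library. Without HFD replicate 2, DESeq2 called *Kmt2e* alone, and without ND replicate 2 it called *Paf1* and *Kdm1b*. *Kmt2a* and *Setd1b*, whose values did not overlap between the diets, had adjusted p of 0.196 and 0.214 in DESeq2.

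To order the 10 genes by level, CPM was divided by kilobases of exon. The sums of CPM given above, and the shares of those sums, are not corrected for exon length. The ND means ran from 0.504 ± 0.021 CPM per kilobase for *Setd1a* to 28.1 ± 38.9 for *Kmt2e* (SD, n = 2 each). Between them came *Setd1b* with 0.553 ± 0.258, *Kmt2a* with 0.555 ± 0.155, *Paf1* with 0.698 ± 0.487 and *Kmt2c* with 0.802 ± 0.188. *Kdm1b* followed with 1.16 ± 0.23, *Kmt2b* with 1.497 ± 0.486, *Wdr5* with 1.61 ± 0.31 and *Kmt2d* with 6.81 ± 8.43. The library values of neighbours in this order overlapped, except that *Kmt2c*, at 0.935 and 0.668, lay below *Kdm1b*, at 1.33 and 1.001. In HFD the order was *Setd1a* with 0.477 ± 0.417, *Kmt2e* with 0.612 ± 0.341, *Kmt2b* with 1.47 ± 1.53, *Wdr5* with 2.13 ± 0.21, *Setd1b* with 2.33 ± 1.21, *Kmt2a* with 2.59 ± 1.93, *Kmt2c* with 3.10 ± 1.02 and *Kmt2d* with 3.17 ± 0.24. *Kdm1b* with 147 ± 207 and *Paf1* with 221 ± 312 stood at the top through 1 library. In HFD the library values of all neighbours in the order overlapped. The background limits correspond to 1.03 and 1.15 CPM per kilobase in ND and 1.15 and 2.19 in HFD.

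A further 39 genes of the pathway were examined: subunits of the same complexes, the H2B ubiquitination step, other methyltransferases, demethylases and readers of H3K4 methylation. Of these 38 passed the filter, with 20 fitted log2 fold changes above 0 and 18 below, a median of 0.04 and 0 genes called by edgeR. An unadjusted p under 0.05 was found for 2 higher and 4 lower genes, beside 4.82% and 6.41% of all genes tested. Both HFD libraries lay above both ND libraries in CPM for 10 of the 38 and below for 8, beside 13.9% and 13.4% of all genes tested. After TMM normalization these were 8 and 8, beside 16.1% and 17.8%. DESeq2 on all genes called 6 higher and 6 lower of the 25 that received an adjusted p, shares near the 24.3% and 21% of all genes with one. Background was exceeded in every library by 3 of the 39 genes and in none by 12. The 3 were *Dpy30*, a core subunit, and the readers *Ing1* and *Spin1*, named here after their values were seen.

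The smallest p among genes with higher HFD values belonged to *Leo1*, *Kdm6a* and *Rnf20*. *Leo1*, a subunit of the PAF1 complex, had 2.19 and 3.20 CPM in ND and 226 and 58.2 CPM in HFD, with a log2 fold change of 6.02 (standard error 1.79, unadjusted p = 0.0162, adjusted p = 0.406). Unlike *Paf1*, it was high in both HFD libraries, and omitting any 1 library gave log2 fold changes of 3.69 to 6.87. *Kdm6a*, the H3K27 demethylase that travels with KMT2C and KMT2D, had 2.55 and 6.14 CPM in ND and 33.5 and 223 CPM in HFD (log2 fold change 4.44, standard error 1.39, adjusted p = 0.406). *Rnf20*, a ligase of H2B ubiquitination, had 3.53 and 6.53 CPM in ND and 184 and 14.7 CPM in HFD.

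Among genes with lower HFD values, the smallest p belonged to *Hcfc2*, *Ube2b* and *Psip1*. *Hcfc2*, a subunit of KMT2 complexes, had 5.11 and 6.78 CPM in ND and 0.620 and 2.45 CPM in HFD (log2 fold change -2.25, standard error 0.52, unadjusted p = 0.00433, adjusted p = 0.406). Its counts were near or under background, at 0.904 and 1.07 of the limit in ND and 0.098 and 0.204 in HFD. DESeq2 gave *Hcfc2* no adjusted p. *Ube2b*, the conjugating enzyme that works with RNF20 on H2B, had 1957 and 1033 CPM in ND and 2.01 and 1.92 CPM in HFD, with a log2 fold change of -9.49 (standard error 2.48, unadjusted p = 0.00917, adjusted p = 0.406). *Psip1*, a chromatin tether of KMT2A, had 140 and 173 CPM in ND and 5.73 and 14.2 CPM in HFD (log2 fold change -4.18, standard error 1.33). The diets did not overlap in any of the 3.

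The pathway genes highest in CPM, which is not corrected for exon length, differed from library to library. They were *Ube2b* and *Wdr61*, a PAF1 complex subunit at 1465 CPM, in ND replicate 1, and *Ube2b* and its paralog *Ube2a*, at 651 CPM, in ND replicate 2. In HFD replicate 1 they were *Glyr1*, the cofactor of KDM1B, at 1002 CPM and the reader *Bptf* at 937 CPM. In HFD replicate 2 they were the methyltransferase *Setd7* at 2164 CPM and *Spin1* at 968 CPM. Per kilobase of exon the order changed. *Dpy30*, at 399 CPM per kilobase, stood above *Wdr61*, at 314, in ND replicate 1. In HFD replicate 1 *Ube2a* and *Spin1*, at 140 and 122, stood above *Glyr1* and *Bptf*, at 119 and 66.5. *Spin1*, at 215, stood above *Setd7*, at 200, in HFD replicate 2. *Glyr1* and *Kdm1b* were thus high in different HFD libraries, with *Glyr1* at 4.02 CPM where *Kdm1b* was at 1614. Likewise *Wdr61* was at 1.92 CPM where *Paf1* was at 1518. *Leo1* was at 58.2 CPM in that library, under its 226 CPM in HFD replicate 1 but above its 2.19 and 3.20 CPM in ND. *Prdm9*, the meiotic H3K4 methyltransferase, was named after its values were seen and had 14, 16, 9 and 6 counts, at background in all 4 libraries.

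**Figure D4:**
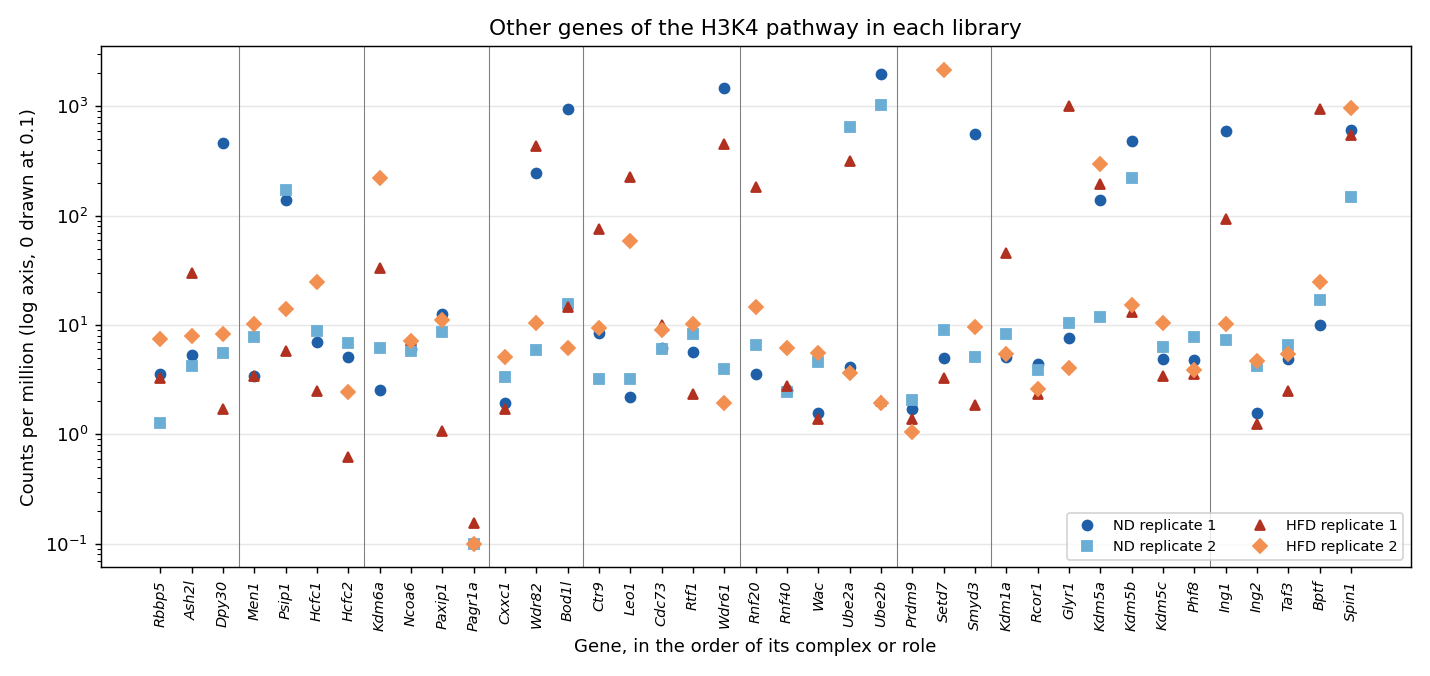
CPM of the 39 other pathway genes in each library, on a log axis, in the order of their complex or role and separated by vertical lines, with 0 counts drawn at 0.1. *Ube2b* and *Psip1* are high in both ND libraries and low in both HFD libraries, *Leo1* and *Kdm6a* the reverse, and *Setd7*, *Glyr1*, *Bptf* and *Smyd3* are high in 1 library each.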

How the data were processed

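The authors used Trim Galore for trimming, HISAT2 for alignment to mm10 and featureCounts for gene counts, as the labels and the study's methods state. The annotation release, strand setting and handling of multi-mapping reads are not given in the sources used here. The deposited files hold raw counts, one library each, without normalization. Identifiers without version were matched to GENCODE M21 names on GRCm38, the assembly of mm10, and 55141 of 55401 were named. Exon lengths are unions of all annotated exons.

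CPM is the count over the library total. The diets were compared in R 4.3.3 with edgeR 4.0.16, using the quasi-likelihood fit (legacy FALSE), TMM normalization (factors 1.02 and 0.940 in ND, 0.692 and 1.51 in HFD), filterByExpr and Benjamini-Hochberg adjustment over 19335 genes. A standard error is the size of the log2 difference divided by the root of the F statistic. Adjusted p refers to this test unless DESeq2 (1.42.0, Wald test) or limma-voom (limma 3.58.1) is named. The functions were tested on simulated data. Changed genes there were changed in both HFD libraries alike, so values high in a single library were not covered. Nothing in the sources says that the pools came from separate litters, so p-values measure the spread between these samples. Genes and lists were chosen with earlier results of these data known. Named were the 10 genes, the 2 pathway genes highest in CPM in each library and the 3 with the smallest p in each direction. The 3 genes nearest to Paf1 and to Kmt2e were also named. Endothelial, blood and housekeeping markers (5, 8 and 10 genes) summed to 18.8 to 698, 7.93 to 1984 and 11205 to 24013 CPM across libraries. No protein sequences were used here.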

Additional observations from a re-analysis of the deposited data

How the results depend on the processing

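With 2 libraries a diet, 1 library can set a value, and counts near background limit what can be read for most of the group. In edgeR or limma-voom, 0 genes were called under RLE factors, library size only, no filter, at least 10 counts in every library, voom weights, no fold change minimum, the replicate block and with any 1 library omitted. The legacy edgeR fit called 12 genes higher and 22 lower, with 0 of the 10 genes. DESeq2 called 1360 higher and 1179 lower on all genes (3 of the 10 genes, 12 pathway genes) and 1039 and 1063 on the filterByExpr genes (again 3 and 12). DESeq2 without 1 library, added after seeing the data, called 877 higher and 425 lower without ND replicate 1, 981 and 814 without ND replicate 2, 431 and 1179 without HFD replicate 1, and 1078 and 964 without HFD replicate 2. These included, in that order, 3, 2, 3 and 1 of the 10 genes and 7, 12, 11 and 10 pathway genes. The cause was not tested.

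The sign of the log2 fold change was kept in every leave-one-out edgeR fit by 6 of the 10 genes. It changed for Kmt2b, which ranged from -1.46 to 0.026, Kmt2d from -1.97 to 1.79, Wdr5 from -0.21 to 0.81 and Kdm1b from -0.47 to 7.25. In DESeq2 the same 4 changed sign, Kmt2b to 0.068 and Wdr5 to -0.16 without HFD replicate 1, Kmt2d to 1.75 without ND replicate 1 and Kdm1b to -0.56 without HFD replicate 2. Scaling by library size only moved the median of all genes by 0.18 on the log2 scale and changed the sign of 0 of the 10 genes. Deviations of same-numbered libraries had a correlation of 0.011 across genes. This gave no sign of pairing by number, but with 2 libraries a diet it cannot exclude pairing. With the replicate block 0 genes were called, and the log2 fold change was 4.71 for Paf1, 3.47 for Kdm1b and -3.41 for Kmt2e. In CPM, 8 of the 10 genes had HFD above ND without HFD replicate 1, against 4 with all libraries. The 95th percentile as background limit moved the genes above it in ND replicate 2 from 3 to 6, the largest such change. Dividing by the longest transcript in place of all exons raised the mean CPM per kilobase over all libraries. It went from 111 to 190 for Paf1, 14.3 to 20.5 for Kmt2e, 1.95 to 2.64 for Kmt2c, 1.44 to 1.96 for Setd1b and 1.87 to 2.33 for Wdr5. Only for Wdr5 did this exceed the SD over the libraries, which was small for that gene. For genes set by 1 library the SD is wide, so it cannot show that their means were stable.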
